A study of Rattus norvegicus with 8 samples.

Results

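The 10 Kruppel-like factors Klf2, Klf3, Klf4, Klf5, Klf6, Klf7, Klf9, Klf10, Klf13 and Klf15 were followed in the dentate gyrus (DG) of rats after status epilepticus (SE), prolonged seizures evoked by kainic acid. The members were the gene names that the array gives these factors, which 16 of 41012 probes carry, and they made up 10 of 35199 gene names on the array. All 10 had at least 1 spot whose foreground was 2 or more times its local background in every rat, so all were quantified, among 21332 quantified genes. Total RNA came from adult female Sprague-Dawley rats, all ovariectomized and all put through SE. Of the 8 rats, 4 were castrated, oil-injected rats with SE (COS) and 4 were castrated, estradiol-replaced rats with SE (CES). Per the labels, hormone or oil began 1 week after ovariectomy, estradiol was given as 4 doses of 2 microg at 24 h intervals with 2 doses on each side of SE, kainic acid was given at 16 mg/kg, and SE was stopped by pentobarbital after 5 h. The methods instead place every injection before SE, use a lower dose of kainic acid and diazepam, and give the time of tissue collection in 2 different ways, so the time after SE is not settled. The rats without SE were not analysed here, and the question is how estradiol replacement altered the DG after SE.

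Kruppel-like factors are transcription factors that bind CACCC and GC-rich sites through zinc fingers at their C-terminal end, while their N-terminal ends differ and set whether they activate or repress. Klf2, Klf4, Klf5, Klf6 and Klf7 are placed together as mostly activating factors, Klf3 represses through the CtBP co-repressors, and Klf9, Klf10 and Klf13 repress through Sin3. In neurons Klf4 and Klf9 restrain the growth of axons and neurites and Klf6 and Klf7 promote it, and in blood vessels Klf2 and Klf4 keep the endothelium quiescent.

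Each array held a Cy3-labeled and a Cy5-labeled rat of the same group, replicates 1 and 3 with Cy3 and replicates 2 and 4 with Cy5, so the dye was balanced while the array was nested in the group. All 4 arrays lay on 1 slide. Valid spots numbered 30690 to 38553 per rat, and no spot was saturated. The level used below is the log2 of the background-subtracted signal over the median of the valid same-label spots. CES replicate 2 stood apart: its mean correlation over all genes was 0.960 with the other CES rats and 0.979 with the COS rats, while the other 3 CES rats lay between 0.973 and 0.978 with their own group and between 0.935 and 0.941 with COS. The 10 factors and the counts of the gene lists are therefore given with and without it. Of the markers fixed for granule neurons, the principal cells of the DG, Calb1, Dsp and C1ql2 were quantified, and Prox1 and Rbfox3 were not.

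The promoters of the members bear on whether factors that moved together share sites, so those of the factors with the largest falls (Klf4, Klf6, Klf5) and of those with a higher CES mean (Klf9, Klf15) are shown. RefSeq promoters (GRCr8) matched 7 of the 10 members, and not Klf2, Klf10 and Klf13. Printed are the 250 bases before the start, 5′ to 3′ on the gene's strand, and capitals mark a CArG box (the site of serum response factor), the core TGACG of the cAMP response element, an AP-1 site (TGANTCA), a GC box (GGGCGG) or a CACCC box, on either strand.
Klf4 (chr5:75078593-75078842, minus strand): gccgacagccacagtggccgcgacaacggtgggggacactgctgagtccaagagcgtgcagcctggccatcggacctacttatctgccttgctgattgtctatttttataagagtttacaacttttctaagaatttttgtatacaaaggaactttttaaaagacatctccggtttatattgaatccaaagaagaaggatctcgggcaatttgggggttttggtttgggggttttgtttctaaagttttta
Klf6 (chr17:69458479-69458728, minus strand): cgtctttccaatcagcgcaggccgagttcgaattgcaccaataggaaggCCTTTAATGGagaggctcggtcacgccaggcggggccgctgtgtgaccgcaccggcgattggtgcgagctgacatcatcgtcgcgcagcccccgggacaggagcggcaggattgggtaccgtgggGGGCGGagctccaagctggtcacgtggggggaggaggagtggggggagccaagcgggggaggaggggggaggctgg
Klf5 (chr15:82471831-82472080, plus strand): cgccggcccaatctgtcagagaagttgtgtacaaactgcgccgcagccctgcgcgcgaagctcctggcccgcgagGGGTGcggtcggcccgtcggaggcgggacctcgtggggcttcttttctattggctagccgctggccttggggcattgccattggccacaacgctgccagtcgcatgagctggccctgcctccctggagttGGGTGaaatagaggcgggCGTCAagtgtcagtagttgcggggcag
Klf9 (chr1:230126396-230126645, plus strand): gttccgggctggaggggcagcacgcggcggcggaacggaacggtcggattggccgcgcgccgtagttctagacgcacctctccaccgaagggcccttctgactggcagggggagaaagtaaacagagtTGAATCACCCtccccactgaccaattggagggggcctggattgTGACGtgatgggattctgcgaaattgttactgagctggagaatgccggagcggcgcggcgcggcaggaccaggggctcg
Klf15 (chr4:124522765-124523014, plus strand): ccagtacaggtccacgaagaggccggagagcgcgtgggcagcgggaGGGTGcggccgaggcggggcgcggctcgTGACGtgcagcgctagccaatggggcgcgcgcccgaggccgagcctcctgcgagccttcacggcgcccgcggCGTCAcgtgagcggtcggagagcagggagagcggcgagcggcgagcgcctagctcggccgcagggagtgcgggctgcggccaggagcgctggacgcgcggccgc
The search covered these 250 bases and the 50 after the start. A CArG box lay in the promoter of Klf6 and of no other matched member, and 1.64% of all 27457 RefSeq promoters of this length hold one. The core TGACG was in Klf5, Klf9 and Klf15 (22% of all promoters). The AP-1 pattern TGANTCA, which allows any middle base, was matched in Klf9 by TGAATCA (7.33%), where it overlaps a CACCC box. The GC box was in Klf3, Klf6 and Klf7 (34.9%), and the CACCC box in 5 of 7, all but Klf4 and Klf6 (55.1%). None of the 7 held a full cAMP response element (TGACGTCA, 1.91% of all promoters), a glucocorticoid response element (GNACANNNTGTNC, 0.422%) or an estrogen response element (GGTCANNNTGACC, 0.0255%), which says only that these letters are not in this window. The Klf4 window held 45% GC, beside 54% (Klf3) to 77.3% (Klf15) in the others. Whether the RefSeq start of Klf4 is the one used in the DG was not tested. Its window may therefore not be the promoter in use, and the sites missing from it may lie elsewhere. The counts over the 7 matched members include this window.

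Of the 10 Kruppel-like factors, 6 were lower in CES than in COS (Klf2, Klf3, Klf4, Klf5, Klf6 and Klf7), none was higher, and 4 did not pass the test (Klf9, Klf10, Klf13 and Klf15), by limma with a Benjamini-Hochberg adjusted p under 0.05 over all 21332 genes. The background was 28.3% of all genes lower and 5.8% higher, 34.1% in either direction. In 4 factors (Klf2, Klf4, Klf5 and Klf6) the COS and CES rats did not overlap, each with CES lower, beside 19.8% of all genes, and none was apart with CES higher, beside 1.61% (21.4% in either direction). The median difference CES minus COS of the 10 was -0.65 on the log2 scale, beside -0.25 over all genes, and 8 of 10 lay below the median of all genes. The p-values set each difference against a spread between rats pooled over both groups, though the groups could differ in it (SD of Klf4 0.30 in COS, 0.96 in CES). An effect of the arrays, which were nested in the group, cannot be told apart from the difference between the groups. With loess within and Aquantile between arrays the median of all genes became 0.06 and calls over all genes turned from 1238 higher and 6038 lower to 3042 higher and 1892 lower. Klf2, Klf4, Klf5 and Klf6 then stayed lower, Klf3 (adjusted p = 0.139) and Klf7 (adjusted p = 0.184) were not called, and Klf9 was called higher.

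**Figure D1:**
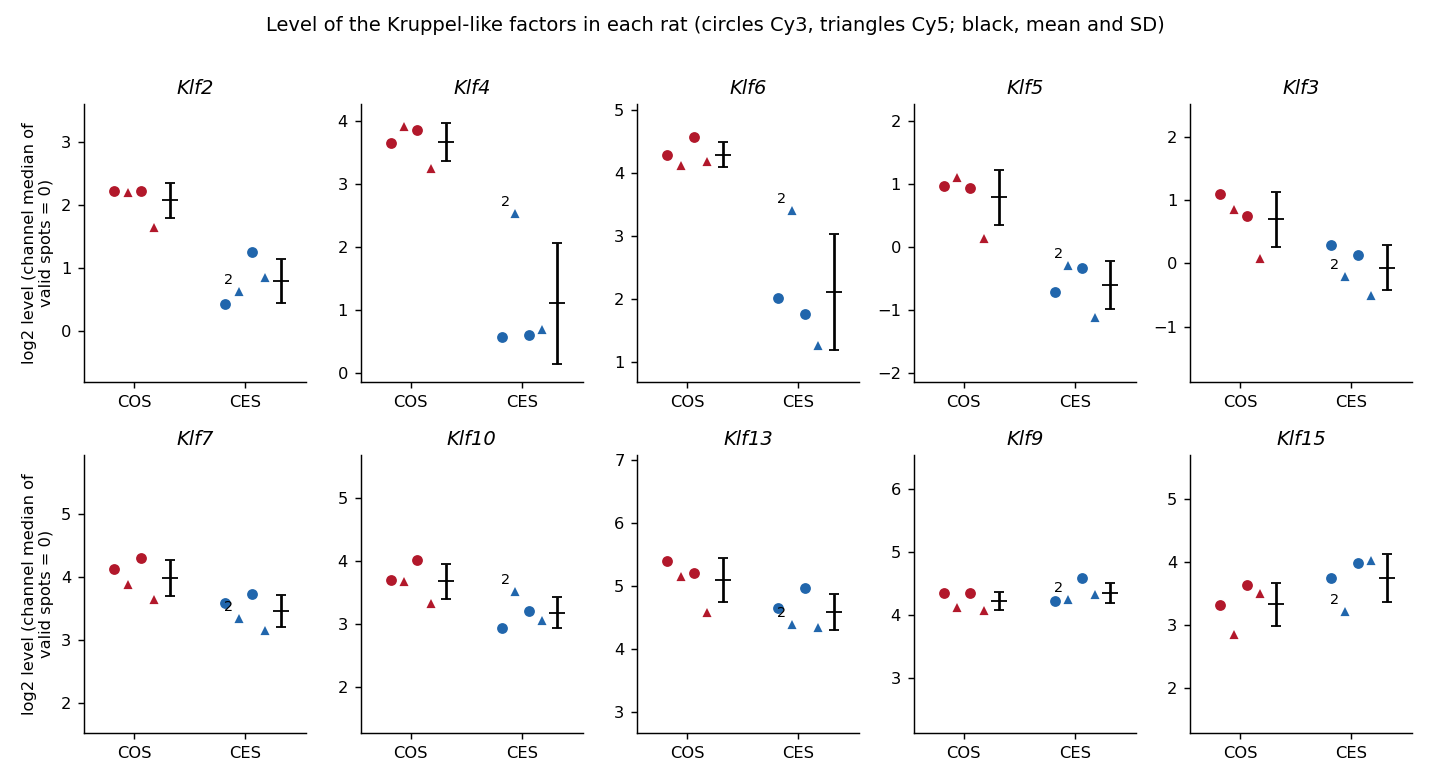
Log2 level of each factor in each rat, with COS in red and CES in blue, circles for Cy3, triangles for Cy5, the mean with SD in black and CES replicate 2 marked; all panels span the same number of log2 units. The groups are apart for Klf2, Klf4, Klf6 and Klf5 and overlap for the other 6 factors.

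Among the activating factors, Klf4, a vascular and pluripotency factor that restrains cell division, showed the largest difference of the 10. Its single probe lies at chr5:73446994-73447053 (rn4, minus strand). The log2 level was 3.65, 3.92, 3.84 and 3.24 in COS 1 to 4, and 0.57, 2.53, 0.61 and 0.70 in CES 1 to 4. The groups were apart, and CES 2 lay well above the other 3 CES rats. The log2 difference was -2.56 (SE 0.39, 95% interval -3.43 to -1.69, adjusted p = 0.00395), a 5.9-fold lower level. Without CES 2 it was -3.05 (adjusted p = 5.68e-06).

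Klf6, an early-response factor that promotes axon growth and activates genes of transforming growth factor beta signalling, showed the second largest difference. Its log2 level was 4.28, 4.12, 4.58 and 4.20 in COS 1 to 4, and 2.02, 3.41, 1.76 and 1.28 in CES 1 to 4. The groups did not overlap, and CES 2 was again the highest CES rat. CES minus COS came to -2.18 on the log2 scale (SE 0.39, 95% interval -3.05 to -1.31, adjusted p = 0.00516), a 4.52-fold lower level. Without CES 2 the difference was -2.68 (adjusted p = 5.85e-06). Its 2 probes gave -2.19 and -2.18. The scanner software marked 1 of them as an outlier in 2 channels, and the other, at chr17:75581550-75581609 (rn4, minus strand), carried no mark.

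Klf2, the flow-responsive factor of endothelium that is also found in lymphocytes, did not follow CES 2 in this way. Its log2 level was 2.21, 2.21, 2.22 and 1.65 in COS 1 to 4, and 0.43, 0.64, 1.26 and 0.86 in CES 1 to 4. CES 2 lay among the other CES rats and COS 4 lay below the other 3 COS rats, with no overlap between the groups. On the log2 scale the difference was -1.28 (SE 0.22, 95% interval -1.76 to -0.79, adjusted p = 0.00462), a 2.42-fold lower level, and -1.25 without CES 2 (adjusted p = 0.00229). Klf2 was measured by 1 probe, at chr16:17942544-17942603 (rn4, minus strand).

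Klf5, which drives proliferation of epithelium and smooth muscle, had a log2 level of 0.96, 1.11, 0.93 and 0.13 in COS 1 to 4, and of -0.71, -0.29, -0.33 and -1.11 in CES 1 to 4. The groups did not overlap. CES minus COS was -1.39 on the log2 scale (SE 0.25, 95% interval -1.96 to -0.82, adjusted p = 0.00536), a 2.63-fold lower level, and -1.57 without CES 2 (adjusted p = 0.000696). Both probes were called, with -1.26 (adjusted p = 0.00464) and -1.76 (adjusted p = 0.00974). The software marked the second as well above background in all 4 COS rats but in 2 of the CES rats, so its difference rests on dim spots in CES.

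Klf7, which promotes axon growth, was lower by a smaller amount. Its log2 level was 4.13, 3.89, 4.30 and 3.65 in COS 1 to 4, and 3.60, 3.36, 3.73 and 3.16 in CES 1 to 4. COS 4 lay below CES 3, so the groups overlapped. The log2 difference was -0.53 (SE 0.15, 95% interval -0.88 to -0.19, adjusted p = 0.0256), a 1.45-fold lower level, and -0.57 without CES 2 (adjusted p = 0.0198).

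The call of Klf7 rested on 1 of its 2 probes, and both are shown for that reason, in lower case, 5′ to 3′, at their rn4 positions on the minus strand, with starts 38069 bases apart.
A_44_P439475 (chr9:62737502-62737561): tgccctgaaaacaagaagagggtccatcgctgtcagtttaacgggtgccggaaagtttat
A_44_P439473 (chr9:62699433-62699492): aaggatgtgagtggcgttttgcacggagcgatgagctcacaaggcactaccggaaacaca
The first gave a log2 difference of -0.77 (SE 0.16, adjusted p = 0.00777) and the second -0.28 (SE 0.15, adjusted p = 0.191), which became 0.05 with loess and Aquantile normalization. The difference between the probes was not tested. The longest run of bases that either shares with a probe of another member is 9 bases. Over all 16 probes, 8 were called lower and none higher, beside 29% and 5.48% of 25698 probes.

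**Figure D2:**
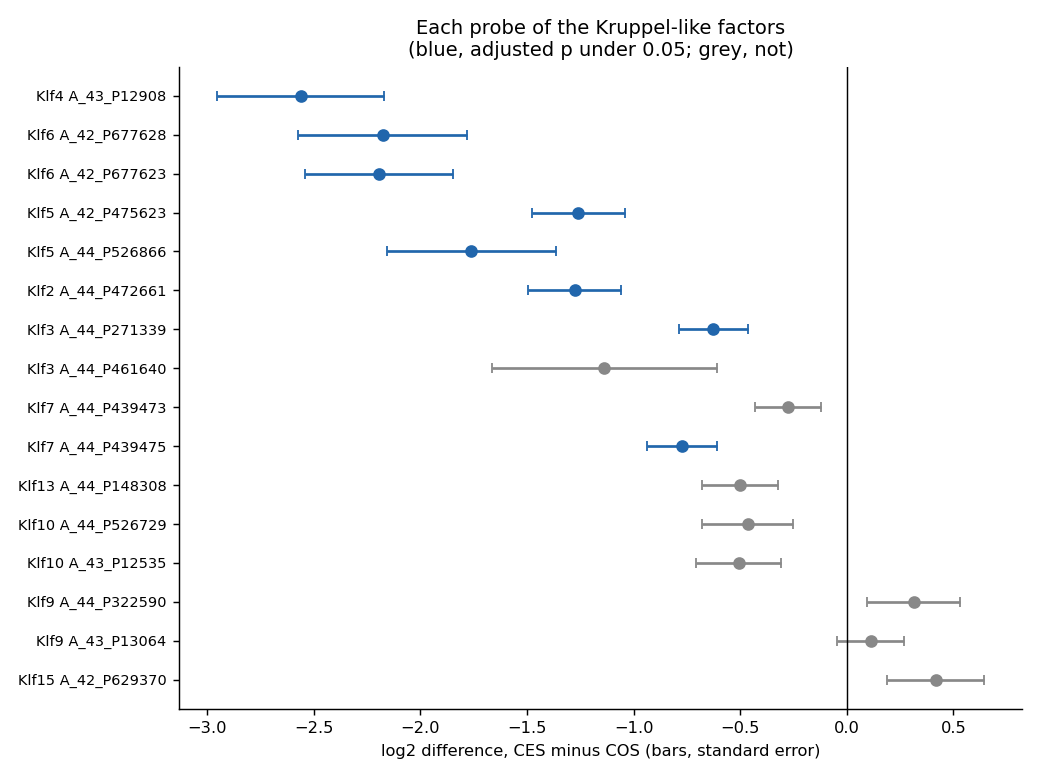
Log2 difference CES minus COS of each of the 16 probes with its standard error; blue probes passed the adjusted p of 0.05 over all probes. The 2 probes of Klf6 lie together at -2.19 and -2.18, while those of Klf7 lie apart at -0.77 and -0.28.

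Klf3, the repressor that recruits CtBP, was the remaining factor called lower. Its log2 level was 1.10, 0.87, 0.75 and 0.08 in COS 1 to 4, and 0.29, -0.20, 0.14 and -0.49 in CES 1 to 4. COS 4 lay among the CES rats and the groups overlapped. On the log2 scale CES minus COS was -0.77 (SE 0.20, 95% interval -1.22 to -0.31, adjusted p = 0.0192), and -0.81 without CES 2 (adjusted p = 0.0148). One probe was called, with -0.63 (adjusted p = 0.0158), and the other was not, with -1.14 (SE 0.53, adjusted p = 0.120), and that probe was clearly above background, by the software's mark, in 3 COS rats and 2 CES rats.

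The Sin3-dependent repressors were not called. Klf10, induced early by transforming growth factor beta, had a log2 level of 3.69, 3.68, 4.01 and 3.34 in COS 1 to 4, and of 2.95, 3.52, 3.21 and 3.06 in CES 1 to 4. CES 2 lay inside the COS range and the other 3 CES rats below it. The log2 difference was -0.50 (SE 0.20, 95% interval -0.95 to -0.05, adjusted p = 0.0805), and without CES 2 it was -0.64 and passed the threshold (adjusted p = 0.0210). Klf13, a regulator of the chemokine Ccl5 in T cells and of erythroid genes, had 5.40, 5.17, 5.20 and 4.60 in COS 1 to 4 and 4.66, 4.40, 4.97 and 4.35 in CES 1 to 4. Its log2 difference was -0.50 (SE 0.18, 95% interval -0.90 to -0.10, adjusted p = 0.0539), with overlapping groups, and -0.51 without CES 2 (adjusted p = 0.0620). It passed the threshold in 4 of 25 alternatives, without a dye term (adjusted p = 0.0446), with spots well above background in all rats (0.0255), without CES 3 (0.0334) and without CES 4 (0.0477).

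Klf9, a glucocorticoid- and thyroid hormone-responsive factor that takes part in the maturation of granule neurons, was one of 2 members with a higher CES mean. Its log2 level was 4.35, 4.13, 4.35 and 4.08 in COS 1 to 4, and 4.23, 4.26, 4.59 and 4.34 in CES 1 to 4. The groups overlapped, with a log2 difference of 0.13 (SE 0.15, 95% interval -0.22 to 0.48, adjusted p = 0.547), and it remained 0.13 without CES 2 (adjusted p = 0.563). It lay 0.38 above the median difference of all genes, and it was called higher under loess and Aquantile (0.42, adjusted p = 0.0459).

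Klf15, a glucocorticoid-induced factor of glucose and amino acid metabolism, had a log2 level of 3.32, 2.86, 3.63 and 3.51 in COS 1 to 4, and of 3.75, 3.22, 3.98 and 4.03 in CES 1 to 4. The 3 other CES rats exceeded all COS rats and CES 2 lay inside the COS range. The log2 difference was 0.42 (SE 0.23, 95% interval -0.09 to 0.92, adjusted p = 0.181), and 0.58 without CES 2 (adjusted p = 0.0549). Klf9 and Klf15 were above 0 in every setting tried. The closest patterns to Klf15 over the 8 rats were those of Lrrn3 (Pearson r = 0.955), the transcript FQ211169 (r = 0.948) and Gjd2 (r = 0.943), and the closest to Klf4 those of Rplp2 (r = 0.998), Fos (r = 0.995) and Emd (r = 0.995), given as a description over rats of both groups that share arrays and dyes.

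**Figure D3:**
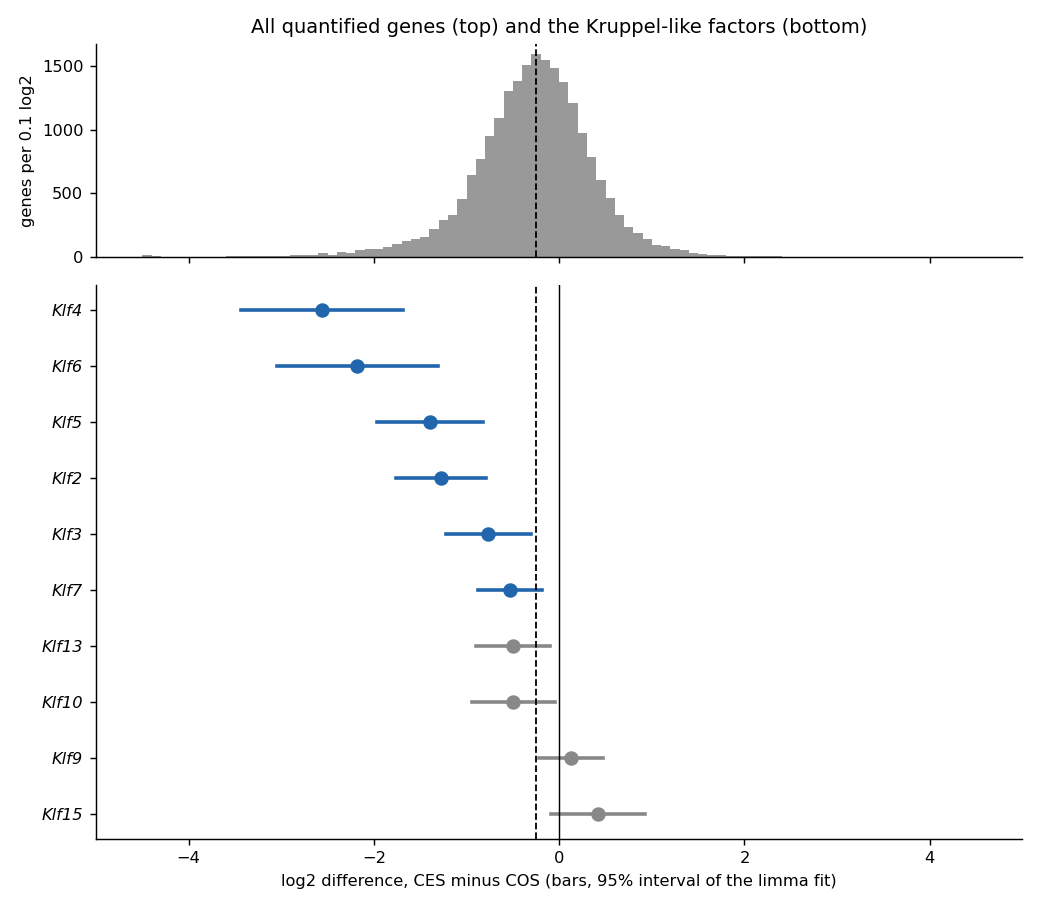
Distribution of the log2 difference CES minus COS over all 21332 genes, values beyond 4.5 either way gathered in the end bins (top), and the 10 factors with 95% intervals, blue where called (bottom); the dashed line is the median of all genes. The intervals of Klf4, Klf6, Klf5, Klf2 and Klf3 lie wholly below the median of -0.25, that of Klf7 reaches past it, and those of Klf9 and Klf15 span 0.

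Read against the COS mean, CES 2 differed from its group in some factors and not in others. It lay above the other 3 CES rats for Klf4, Klf5, Klf6 and Klf10 (4 of 10) and below them for Klf15, and within the COS range for Klf9, Klf10 and Klf15. For Klf2, Klf3, Klf7, Klf9 and Klf13 it lay inside the range of the other CES rats. COS 4, a Cy5 rat, was the lowest COS rat for 8 of the 10 factors. Without CES 2, 7 factors were lower (the 6 and Klf10), beside 32.7% of all genes, and without COS 4 the same 6, beside 23.5%. Without COS 3 only Klf2 (adjusted p = 0.0479) and Klf4 (adjusted p = 0.0475) passed, with Klf6 at 0.0512 and Klf5 at 0.0539. In that setting the share of all genes lower fell to 4.28%. Within the Cy3 rats alone Klf2, Klf4, Klf5 and Klf6 were called, beside 20.3% of all genes lower. Within the Cy5 rats alone, which hold CES 2, none was, beside 0.00938% of all genes lower. The difference of Klf4 was -3.16 in the Cy3 rats and -1.97 in the Cy5 rats.

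**Figure D4:**
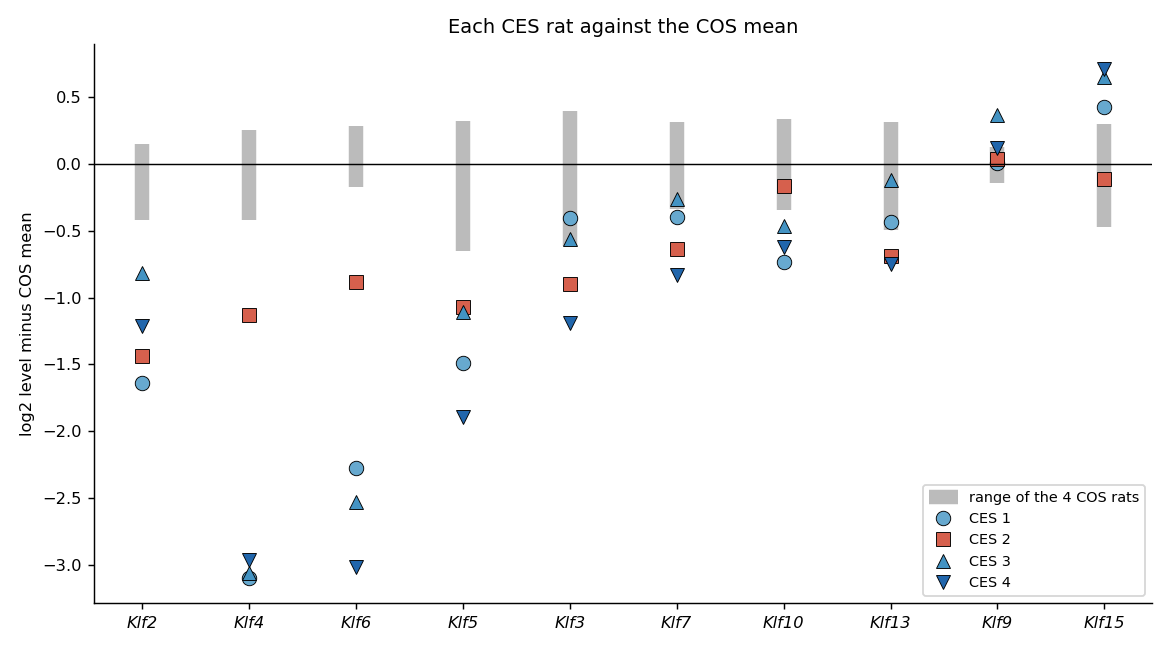
Log2 level of each CES rat minus the COS mean for each factor, with the range of the 4 COS rats as a grey bar. CES 2 (red squares) lies at -1.13 for Klf4, where the other 3 CES rats lie near -3, and among them for Klf2.

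Other factors of the family, from a list of 7, were quantified in 3 cases (Klf1, Klf11 and Klf16), and none passed the test, with or without CES 2. Klf11 and Klf16 belong with Klf9, Klf10 and Klf13 as Sin3-dependent factors, and their log2 differences were 0.16 (adjusted p = 0.557) and 0.36 (adjusted p = 0.139). Klf16 was called higher under loess and Aquantile (0.65, adjusted p = 0.0257). Klf1, the erythroid factor, had -0.27 (adjusted p = 0.254).

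Of 9 quantified partners and modifiers, 5 were lower and none higher, and none was called under loess and Aquantile or without COS 3. Without CES 2, 5 were lower, with Sin3b (adjusted p = 0.0412) in and Hdac2 out. Of all genes, 28.3% were lower as reported, 8.87% under loess and Aquantile, 32.7% without CES 2 and 4.28% without COS 3. Sin3a, the scaffold for Klf9, Klf10 and Klf13, had a log2 difference of -0.51 (adjusted p = 0.0292), and Hdac1, a deacetylase bound by that scaffold, -0.88 (adjusted p = 0.0153). Hdac2, Crebbp and Wwp1, the ubiquitin ligase of Klf2 and Klf5, were the other called ones. The co-repressors of Klf3 were not called, with -0.17 for Ctbp1 and -0.39 for Ctbp2.

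Upstream of the family, 1 of 10 quantified genes was higher and none lower, beside 5.8% and 28.3% of all genes. Nr3c2, the mineralocorticoid receptor, which binds corticosterone in the DG, had a log2 level of 2.63, 2.05, 3.23 and 2.44 in COS 1 to 4 and of 3.80, 3.31, 4.20 and 3.93 in CES 1 to 4. No CES rat overlapped the COS range, with a log2 difference of 1.22 (SE 0.22, adjusted p = 0.00525). Nr3c1, the glucocorticoid receptor that induces Klf9 and Klf15, had 0.29 (adjusted p = 0.169), and Thrb, the thyroid hormone receptor upstream of Klf9, had 0.31 (adjusted p = 0.161). The kinases and Mef2 factors that induce Klf2 and Klf4 were not called either, with -0.38 for Mapk7 and 0.50 for Mef2a (adjusted p = 0.0526). Under loess and Aquantile 4 of the 10 were higher, among them Nr3c1, Thrb and Mef2a, and without CES 2 there were 2, Nr3c2 and Mef2a (adjusted p = 0.0292). Of all 21332 genes, 3042 and 1855 were higher in these settings. The estrogen receptor gene Esr1 was not quantified, and Esr2 had 0.05 (adjusted p = 0.851).

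Of 20 quantified genes reported as Kruppel-like factor targets, 11 were lower and 2 higher, with 7 lower and 3 higher under loess and Aquantile, and 4 lower and none higher without COS 3. As reported, 28.3% of all genes were lower and 5.8% higher. The share lower was 8.87% under loess and Aquantile and 4.28% without COS 3. Higher in these settings were 3042 and 257 of all 21332 genes. Nos3 and Thbd, which Klf2 and Klf4 are known to activate in endothelium, had log2 differences of -2.02 (SE 0.34, adjusted p = 0.00442) and -2.54 (SE 0.40, adjusted p = 0.00414). Edn1, which Klf2 is known to repress, was lower too, by -1.56 (adjusted p = 0.00314), and Vcam1, also repressed by Klf2, had 0.01 (adjusted p = 0.956). Cdkn1a, the cell cycle inhibitor that Klf4 and Klf6 activate, was at 4.93, 5.77, 5.19 and 4.89 in COS 1 to 4 and at 1.79, 3.27, 1.86 and 1.83 in CES 1 to 4, a log2 difference of -3.01 (adjusted p = 0.00294). Again the groups were apart, and CES 2 was the highest CES rat.

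The targets tied to Klf6 in transforming growth factor beta signalling, Tgfb1, Tgfbr1 and Eng, had -2.00 (adjusted p = 0.0071), -0.80 (adjusted p = 0.0101) and -1.64 (adjusted p = 0.00475). Lgals3, a galectin gene repressed by Klf3, was lower by -3.64 (SE 0.84, adjusted p = 0.0112), with CES 2 at 5.84 and the other CES rats between 0.92 and 2.06. Without CES 2, 11 of the 20 targets were lower and 2 higher, beside 6982 and 1855 of all 21332 genes. The targets called higher were L1cam, which Klf7 is known to activate, with 0.72 (adjusted p = 0.0224), and Kcnip2, a potassium channel subunit gene activated by Klf15, with 0.80 (adjusted p = 0.0362). Gap43 had -0.19 (adjusted p = 0.458). As reported, Klf7 itself was lower where L1cam was higher. Under loess and Aquantile L1cam was still called higher (adjusted p = 0.0205) and Klf7 was not called (adjusted p = 0.184). Neither was called without COS 3 (adjusted p = 0.101 for L1cam and 0.116 for Klf7).

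Neuronal activity genes and glucocorticoid-induced genes were counted in the same fit. All 6 quantified neuronal activity genes were lower (Fos, Junb, Egr1, Egr2, Arc and Nr4a1), 4 of them under loess and Aquantile, 6 without CES 2 and 2 without COS 3 (Junb and Egr2). Egr2 was well above background in 4 COS rats but in 2 CES rats. Fos had a log2 difference of -4.25 (SE 0.75, adjusted p = 0.00499), with CES 2 at 3.73 and the other 3 CES rats between -0.22 and 0.25, and Junb had -2.39 (adjusted p = 0.00375). Of 8 glucocorticoid-induced genes, 5 were lower and none higher, with 4 lower under loess and Aquantile, 5 without CES 2 and 4 without COS 3. Beside both lists, the shares of all genes lower in these settings were 28.3% as reported, then 8.87%, 32.7% and 4.28%. Sgk1 had -1.46 (adjusted p = 0.00419) and Cebpd -2.68 (adjusted p = 0.00389), while Klf9 and Klf15, which glucocorticoids also induce, were not called (0.13 and 0.42). CES 2 was the lowest of all rats for Sgk1, at 2.03, and the highest CES rat for Cebpd, at 5.69.

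Markers of the cell types of the DG were counted in the same way. Beside them, 28.3% of all genes were lower as reported, 8.87% under loess and Aquantile, 32.7% without CES 2 and 4.28% without COS 3. Higher were 1238 of all 21332 genes as reported, 3042 under loess and Aquantile, 1855 without CES 2 and 257 without COS 3. Of 7 quantified endothelial markers (Pecam1 was not quantified), 5 were lower (Flt1, Tek, Kdr, Esam and Vwf), 2 of them under loess and Aquantile, while 6 were lower without CES 2 and none without COS 3. The log2 of the summed level of the 7 ran from 5.65 to 6.28 in COS and from 4.40 to 4.90 in CES 1, 3 and 4, with 5.67 in CES 2. The defining marker Cdh5 was not called (-0.50, adjusted p = 0.0743) but was lower without CES 2 (adjusted p = 0.0351), and Cldn5 was not called (-0.25, adjusted p = 0.276). Of 6 myeloid markers, 3 were lower (Itgam, Csf1r and Cd68), 1 under loess and Aquantile, 4 without CES 2 and none without COS 3, with a summed log2 level of 4.92 to 5.55 in COS and 4.08 to 4.63 in CES. Of 5 astrocyte markers 1 was higher (Aldh1l1, 1.23) and 1 lower (S100b, -2.22, with overlapping groups). Under loess and Aquantile 2 astrocyte markers were higher and none lower, without CES 2 there were 1 higher and 2 lower, and without COS 3 none was called. Of 5 oligodendrocyte markers and 4 choroid plexus markers none was called in these settings, though the summed log2 level of the latter spread from 3.73 to 9.27 in COS. Of the granule neuron markers, Dsp (-1.24) and C1ql2 (-1.23) were lower and Calb1 was not called (-0.28, adjusted p = 0.376). Both were lower without CES 2, Dsp alone under loess and Aquantile, and neither without COS 3. In whole DG, fewer cells of a type and less RNA per cell cannot be told apart, and the part of these cells in the differences of the Kruppel-like factors was not tested.

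**Figure D5:**
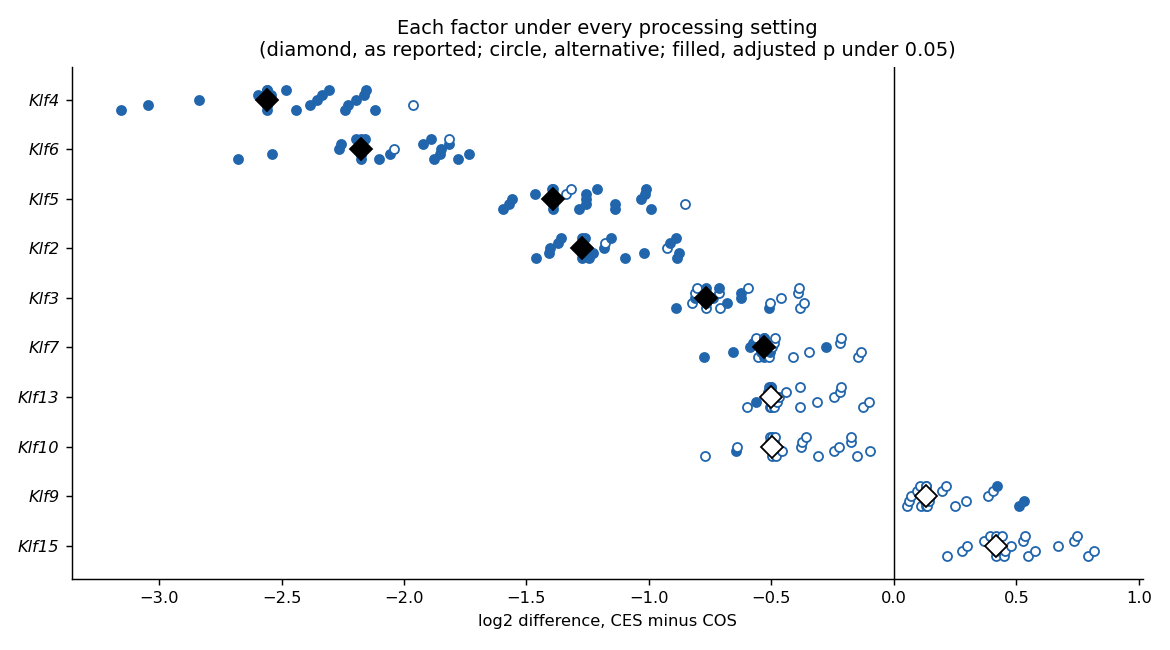
Log2 difference CES minus COS of each factor as reported (diamond) and under 26 alternative settings (circles), filled where the adjusted p was under 0.05. The circle for the difference relative to the median of all genes carries the adjusted p as reported. All settings lie on the same side of 0 for each factor. Klf4 and Klf2 were called in 23 and 22 of the other 25 alternatives, Klf3 and Klf7 in 11 each.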

How the data were processed

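Per the labels, total RNA from the dentate gyrus was amplified and labeled with Cy3 or Cy5, 1 rat per channel, and read by Agilent Feature Extraction 10.7.3.1. The authors deposited the scanner's spot intensity values, not normalized between rats, and log2 values, which were found to equal the log2 of the median signal minus background, less a constant per channel, with each column's median at 0. Valid spots had a foreground of at least 2 times local background. Background-subtracted mean signals were scaled to the median of valid same-label spots, averaged over a gene's spots valid in all 8 rats (27642 spots), and taken to log2. The groups were compared with limma 3.58.1 (statmod 1.5.0, R 4.3.3) with dye as a fixed term and array as a random block, two-sided, Benjamini-Hochberg over all genes, threshold 0.05. The consensus correlation within arrays was -0.01 and the median standard error 0.20, and the 4 rats per group limit the precision. The fit was tested on simulated data of this layout. Names are those of the array's design, probe positions are those of rn4, and 17512 of 41012 probes matched RefSeq accessions, which gave the same 16 member probes. All 10 members were named; other genes were named where called, or as inducer, partner or target of a member. The members and gene lists were chosen with earlier results of these data known. One gene of the target list is not reported here and is not counted in it. Same-numbered rats of the groups deviated together (r = 0.317, 0.209, 0.295 and 0.335), as did other rats of the same dye (0.208 to 0.437), so the replicate number was tried as a block. Alternatives covered background, signal column, normalization, filters, dye, block, probes, naming, the methods' t-test, the log2 values as deposited and each rat left out in turn; scaling over spots valid in all 8 rats was chosen after seeing the data. Figures were drawn with Python 3.11.15, pandas 2.3.3, numpy 2.4.6 and matplotlib 3.10.9.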

Additional observations from a re-analysis of the deposited data

Results flagged for a closer look

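Of 20 groups of 4 rats (10 factors in COS and in CES), 2 held a rat far from the other 3, where chance gives about 1 in 20. The log2 level of Klf4 in CES 2 was 2.53, with the other CES rats between 0.57 and 0.70. The log2 level of Klf2 in COS 4 was 1.65, with the other COS rats between 2.21 and 2.22. The difference of Klf4 was -3.05 without CES 2, and that of Klf2 was -1.41 without COS 4, each in the same direction and called.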

How the results depend on the processing

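The direction of each factor was the same in all settings tried, and that of Klf7 probe A_44_P439473 turned to 0.0455 with loess and Aquantile. As reported, 6 factors and 7276 genes were called. With normexp, 2 factors (Klf4 and Klf6) and 577 genes were called. With the methods' t-test 0 factors and 0 genes were called (7 factors and 6103 genes at an unadjusted p under 0.05). Within the Cy5 rats, replicates 2 and 4 of each group, limma called 0 factors and 2 genes. At an unadjusted p under 0.05 that fit held 4 factors and 2930 genes. Within the Cy3 rats, replicates 1 and 3 of each group, Klf2, Klf4, Klf5 and Klf6 were called, with 749 genes higher and 4324 lower. Without a dye term, and with spots well above background in all rats, 8 factors were lower, the 6 with Klf10 and Klf13 (6704 and 5370 genes lower). Without the filter on valid spots 3100 genes were called, and with a foreground of 3 times background 4100. Leaving out 1 rat gave 2 to 7 factors and 1171 to 8837 genes, with the lowest counts without COS 3; 2988 genes were called without CES 1 and 4145 without COS 1, each with 4 factors. The median difference of the factors was -0.27 in the deposited log2 table and -0.25 when channels were scaled over spots valid in every rat (chosen after seeing the data), where the median of all genes was 0.12 and 0.15 and Klf9 was called higher; leaving out 1 rat gave -0.77 to -0.54. The cause was not tested. With the replicate block in place of the dye, the 6 factors called were unchanged and the median stayed at -0.65, with 1076 genes higher and 6131 lower, so the pairing changed no call of a factor. The 4 arrays per comparison limit the precision, and the dimmer probes of Klf3 and Klf5 were not well above background in every rat.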
